A study of Mus musculus with 10 samples.

Results

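Scavenger and endocytic receptors were examined as a set of 10 genes chosen by name, Mrc1, Cd163, Stab1, Lyve1, Colec12, Msr1, Cd36, Marco, Timd4 and Dab2, out of 49315 genes counted in each library. RNA-seq counts came from microglia, the macrophages of the brain parenchyma, which had been sorted by flow cytometry into cells with and without surface CD11c, an integrin chain whose gene is Itgax. All animals were wild-type C57BL/6 mice, and no treatment is given. The groups were 9-month CD11c+ (2 libraries) and 9-month CD11c- (2 libraries), and postnatal day 5 (P5) CD11c+ (3 libraries) and P5 CD11c- (3 libraries). At each age the design sets CD11c+ cells against CD11c- cells. The labels name a kit for low RNA input (SMART-Seq v4) for the 9-month libraries alone, so age and library kit cannot be told apart and no age difference within a subset was tested. Whether replicates are different mice is not in the labels, so p-values rest on the spread of these libraries alone, and part of it may be technical.

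Scavenger receptors are surface proteins of macrophages that bind modified lipoproteins, damaged proteins, haemoglobin complexes, sugars and dying cells, and carry them into endosomes. Several of them, among them the mannose receptor, CD163, LYVE-1 and stabilin-1, are known as markers of border-associated macrophages, which line the meninges, the perivascular spaces and the choroid plexus. Parenchymal microglia are known to hold less of these receptors and to be marked by genes such as P2ry12 and Tmem119. Uptake through many such receptors uses clathrin-coated pits, where adaptors such as Dab2 link the receptor's tail to the coat.

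Promoter sequence is shown for the members with the highest levels and for Cd163, which had the largest fold change at both ages, so that the stretches before their start sites can be set side by side. Each window runs from 250 bases before to 50 bases after a RefSeq start site (build GRCm38.p6) and is written 5′ to 3′ on the strand of the gene. Capitals mark the 6-base core GAGGAA, searched on both strands (TTCCTC on the other), which is a core bound by ETS factors such as the macrophage factor PU.1. The windows lie at chr2:14229164-14229463 on the plus strand for Mrc1, chr14:31168592-31168891 on the minus strand for Stab1, chr15:6299539-6299838 on the plus strand for Dab2 and chr6:124304401-124304700 on the plus strand for Cd163.
Mrc1: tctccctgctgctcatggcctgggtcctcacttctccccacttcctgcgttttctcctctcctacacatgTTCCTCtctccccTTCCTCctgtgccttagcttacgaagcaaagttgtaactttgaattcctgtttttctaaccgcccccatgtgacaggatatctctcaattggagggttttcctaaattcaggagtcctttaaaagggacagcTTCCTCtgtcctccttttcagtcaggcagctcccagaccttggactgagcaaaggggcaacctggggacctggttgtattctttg
Stab1: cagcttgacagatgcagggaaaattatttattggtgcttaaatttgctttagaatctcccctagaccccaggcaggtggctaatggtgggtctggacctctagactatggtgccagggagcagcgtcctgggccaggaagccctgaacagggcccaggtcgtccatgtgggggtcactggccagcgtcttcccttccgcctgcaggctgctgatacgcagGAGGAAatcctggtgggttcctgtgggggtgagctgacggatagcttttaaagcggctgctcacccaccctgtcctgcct
Dab2: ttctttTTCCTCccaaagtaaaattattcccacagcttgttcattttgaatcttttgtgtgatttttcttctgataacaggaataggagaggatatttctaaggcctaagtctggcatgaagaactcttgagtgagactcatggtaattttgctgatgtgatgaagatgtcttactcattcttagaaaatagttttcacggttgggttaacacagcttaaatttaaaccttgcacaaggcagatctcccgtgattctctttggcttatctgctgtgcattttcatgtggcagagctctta
Cd163: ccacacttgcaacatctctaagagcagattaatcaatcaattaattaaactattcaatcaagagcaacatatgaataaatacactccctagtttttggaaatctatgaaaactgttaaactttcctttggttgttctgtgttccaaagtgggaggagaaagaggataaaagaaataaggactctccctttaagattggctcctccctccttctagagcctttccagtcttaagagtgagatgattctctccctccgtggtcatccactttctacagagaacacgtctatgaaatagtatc

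Of the 10 members, 7 matched the RefSeq promoters, with 8 windows because Dab2 has 2 start sites; Lyve1, Msr1 and Colec12 were not matched. The core stood in 5 of the 8 windows, those of Mrc1, Stab1 and Marco and both of Dab2, and in 28.3% of the 32851 windows of the whole table. Mrc1 held it 3 times, beginning 180, 167 and 35 bases before the start site (-180, -167 and -35), and Stab1 held it once at -30. The 6-base MAF half-site TGCTGA, or TCAGCA on the other strand, stood in 4 of the 8 windows, those of Cd36, Timd4, Stab1 and 1 of Dab2, against 19.5% of all windows. The AP-1 motif TGANTCA and the E-box CACGTG stood in 0 of the 8, against 7.81% and 7.15% of all windows. Matches of different motifs were counted separately where they overlapped, and a match describes the letters alone.

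Both CD11c+ groups held more RNA of nearly every member than the CD11c- group of the same age. At 9 months 9 members were tested and all 9 rose in CD11c+ cells, where 14.8% of 15740 genes tested rose and 18.2% fell. The median log2 fold change of CD11c+ over CD11c- was 2.84 for the members, against 0.02 for all genes tested. At P5 4 of the 10 members rose (Cd163, Lyve1, Colec12 and Dab2), where 0.299% of 15410 genes rose. The P5 median of all 10 members was 3.68, against 0.06 for all genes tested. Leaving out any single P5 library other than CD11c+ replicate 2 left 0 members past the threshold, as it left 0 of all genes tested. These calls are from edgeR's quasi-likelihood test with Benjamini-Hochberg adjusted p under 0.05 over all genes tested at that age, as is every adjusted p given for a gene. No member fell at either age by that test (0 members), and at an unadjusted p under 0.05, by DESeq2 and by limma voom the number lower was also 0. Members that passed the count filter only through the group where they are high had to differ, so these counts and medians describe the list and support nothing further. In bulk libraries fewer cells of a type and less RNA per cell cannot be told apart.

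The P5 CD11c+ replicate 2 stood apart from the other libraries. It held 2619610 counts, against 11892082 to 25483573 in the other 9, and 23033 genes at 1 CPM or more (counts scaled to the library's total), against 12762 to 14735. Itgax, the gene of the sorting marker, checked the labels. It had 28.0 and 20.7 CPM in 9-month CD11c+ libraries, against 5.80 and 3.21 CPM in 9-month CD11c- libraries, and rose by 2.08 ± 0.33 on the log2 scale (SE; edgeR adjusted p = 0.00397). At P5 it had 250.2, 49.2 and 145 CPM in CD11c+ libraries, against 33.1, 61.9 and 29.3 CPM in CD11c- libraries. The P5 groups overlapped because CD11c+ replicate 2, at 49.2 CPM, lay below CD11c- replicate 2, and the fold change of 1.63 ± 0.61 (SE) did not pass (edgeR adjusted p = 0.622). Without the P5 CD11c+ replicate 2, 9 of the 10 members rose at P5, where 5.06% of 15841 genes rose and 4.42% fell. The median of all 10 members was then 3.84, against -0.004 for all genes tested.

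**Figure D1:**
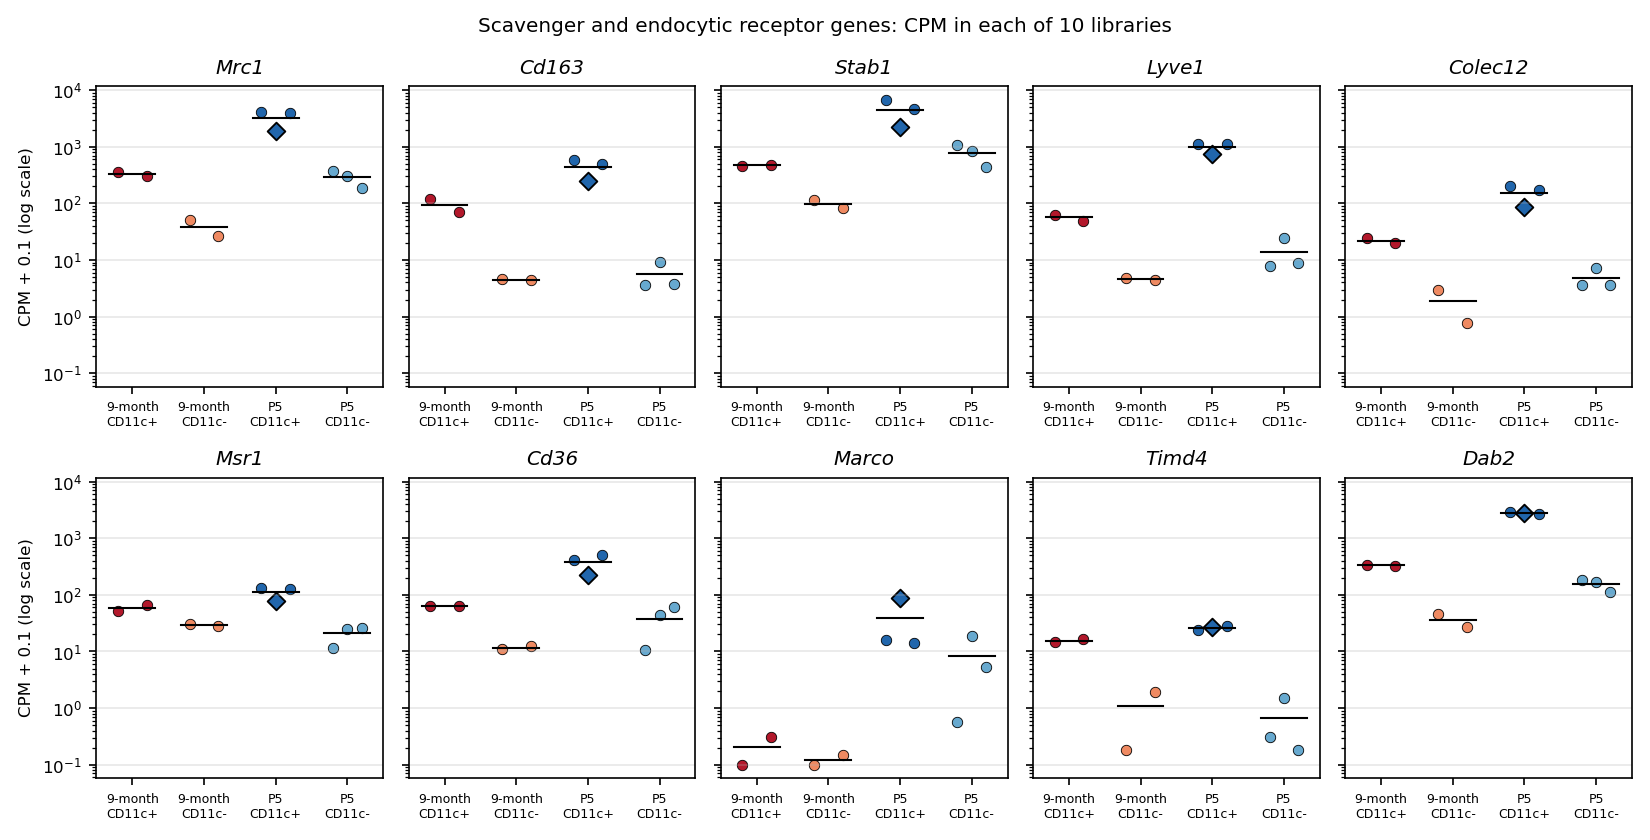
CPM of each member in every library on a log10 axis, by group, with CD11c+ left of CD11c- at each age and P5 CD11c+ replicate 2 drawn as a diamond. Marco is the member whose P5 groups overlap, and its 9-month libraries held 5 counts or fewer.

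The mannose receptor gene Mrc1 encodes CD206, a lectin that takes up mannosylated and sulphated sugars and glycoproteins (ENSMUSG00000026712, chromosome 2, 14229392 to 14332057, plus strand). At 9 months it had 361 and 300.5 CPM in CD11c+ libraries, against 49.96 and 26.3 CPM in CD11c- libraries. Every CD11c+ library lay above every CD11c- library, and Mrc1 rose by 2.76 ± 0.27 (SE; edgeR adjusted p = 0.000538). At P5 it had 4080.0, 1904 and 3889 CPM in CD11c+ libraries, against 369, 307 and 189.5 CPM in CD11c- libraries. The P5 groups did not overlap either, with replicate 2 the lowest of the CD11c+ libraries. Its P5 fold change of 3.35 ± 0.45 (SE) did not pass (edgeR adjusted p = 0.0525), though it passed with DESeq2 and with limma voom, and without P5 CD11c+ replicate 2 Mrc1 rose by 3.65 ± 0.25 (edgeR adjusted p = 0.000537). The window printed above for Mrc1, with its 3 cores, ends within this gene's deposited span.

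The haemoglobin scavenger receptor gene Cd163, which takes up haptoglobin-haemoglobin complexes, had the largest fold change of the members at each age (ENSMUSG00000008845, chromosome 6, 124304656 to 124330527, plus strand). It had 120.4 and 69.3 CPM in 9-month CD11c+ libraries, against 4.56 and 4.25 CPM in 9-month CD11c- libraries. The groups were far apart, and Cd163 rose by 4.06 ± 0.32 (SE; edgeR adjusted p = 0.00022). In P5 mice it had 582, 249.3 and 503 CPM in CD11c+ libraries, against 3.57, 9.29 and 3.62 CPM in CD11c- libraries. The lowest CD11c+ library, replicate 2, still lay above the highest CD11c- library, and Cd163 rose by 6.12 ± 0.64 (SE; edgeR adjusted p = 0.0274). The Cd163 window printed above held none of the motifs searched.

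The hyaluronan receptor gene Lyve1, also known from lymphatic endothelium, followed the same order of groups (ENSMUSG00000030787, chromosome 7, 110850607 to 110863239, minus strand). At 9 months it had 63.3 and 49.7 CPM in CD11c+ libraries, against 4.64 and 4.29 CPM in CD11c- libraries. The groups did not overlap, and Lyve1 rose by 3.29 ± 0.24 (SE; edgeR adjusted p = 0.000133). P5 levels were 1123, 759 and 1101 CPM in CD11c+ libraries, against 7.68, 24.1 and 8.66 CPM in CD11c- libraries. Here too all CD11c+ libraries were the higher ones, and Lyve1 rose by 5.98 ± 0.65 (SE; edgeR adjusted p = 0.0302).

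Stab1 encodes stabilin-1, a receptor that clears modified lipoproteins and extracellular glycoproteins (ENSMUSG00000042286, chromosome 14, 31139013 to 31168641, minus strand). It had 453 and 484 CPM in 9-month CD11c+ libraries, against 117 and 81.8 CPM in 9-month CD11c- libraries, and rose by 1.87 ± 0.17 (SE; edgeR adjusted p = 0.000357). At P5 Stab1 had 6805, 2211 and 4642 CPM in CD11c+ libraries, against 1066, 836 and 440.2 CPM in CD11c- libraries. The groups were separate at both ages. The P5 fold change of 2.39 ± 0.53 (SE) did not pass (edgeR adjusted p = 0.192), and without P5 CD11c+ replicate 2 Stab1 rose by 2.74 ± 0.33 (edgeR adjusted p = 0.00517). Stab1 shares 109 exonic bases with Nt5dc2 on the other strand, and whether the counting used strand is not given in the sources used here.

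Among receptors with a collagen-like stem, Colec12 encodes a collectin that binds sugars and oxidised lipoproteins (ENSMUSG00000036103). It had 24.2 and 19.5 CPM in 9-month CD11c+ libraries, against 2.86 and 0.678 CPM in 9-month CD11c- libraries, where it rested on 69 and 15 counts. The groups did not overlap, and Colec12 rose by 3.28 ± 0.55 (SE; edgeR adjusted p = 0.00508). P5 levels were 202, 84.7 and 172 CPM in CD11c+ libraries, against 3.50, 7.005 and 3.53 CPM in CD11c- libraries. It rose by 4.82 ± 0.51 (SE; edgeR adjusted p = 0.0282), with the lowest CD11c+ library, replicate 2, above all CD11c- libraries.

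Msr1 encodes a class A scavenger receptor that takes up modified low-density lipoprotein (ENSMUSG00000025044, chromosome 8, 39581685 to 39642673, minus strand). It had 51.5 and 65.4 CPM in 9-month CD11c+ libraries, against 30.5 and 27.9 CPM in 9-month CD11c- libraries. These groups were separate but closer than those of the other members tested, and Msr1 rose by 0.62 ± 0.19 (SE; edgeR adjusted p = 0.0448). That call was lost with RLE scaling, with limma voom, without 9-month CD11c+ replicate 2 and without either CD11c- library, and under a scaling to 19 genes of homeostatic microglia its fold change was -0.58. At P5 Msr1 had 132, 77.1 and 126 CPM in CD11c+ libraries, against 11.6, 25.1 and 25.5 CPM in CD11c- libraries. The P5 groups did not overlap, the fold change of 2.19 ± 0.45 (SE) did not pass (edgeR adjusted p = 0.162), and without P5 CD11c+ replicate 2 Msr1 rose by 2.42 ± 0.39 (edgeR adjusted p = 0.0149).

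Marco, also a class A receptor, binds bacteria and particles and is known from alveolar and splenic marginal-zone macrophages (ENSMUSG00000026390, chromosome 1, 120474538 to 120505024, minus strand). At 9 months it had 0 and 5 counts in CD11c+ libraries, against 0 and 1 counts in CD11c- libraries. It was too low to be tested, and the ratio of pooled counts, each over the pooled library totals, was 4.73. The exact 95% interval of that ratio, 0.529 to 224, covers counting error only. P5 levels were 15.9, 87.4 and 13.7 CPM in CD11c+ libraries, against 0.472, 18.9 and 5.13 CPM in CD11c- libraries. The P5 groups overlapped, the highest value lay in CD11c+ replicate 2, and the fold change of 1.98 ± 1.27 (SE) did not pass (edgeR adjusted p = 0.8). Without that library the fold change was 0.62 ± 1.02 (edgeR adjusted p = 0.741), so Marco passed in neither P5 fit and was not tested at 9 months.

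Cd36 encodes the class B receptor that binds oxidised lipoprotein, thrombospondin and long-chain fatty acids (ENSMUSG00000002944, chromosome 5, 17781690 to 17888801, minus strand). It had 63.1 and 64.6 CPM in 9-month CD11c+ libraries, against 10.8 and 12.3 CPM in 9-month CD11c- libraries, and rose by 2.09 ± 0.21 (SE; edgeR adjusted p = 0.000564). At P5 Cd36 had 421, 226 and 503 CPM in CD11c+ libraries, against 10.5, 43.2 and 60.3 CPM in CD11c- libraries. The groups were separate at both ages, with the P5 CD11c- libraries uneven among themselves. The P5 fold change of 3.05 ± 0.74 (SE) did not pass (edgeR adjusted p = 0.238), and without P5 CD11c+ replicate 2 Cd36 rose by 3.35 ± 0.68 (edgeR adjusted p = 0.0294).

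Timd4 encodes TIM-4, a receptor for phosphatidylserine on apoptotic cells that is known as a marker of long-lived resident macrophages (ENSMUSG00000055546, chromosome 11, 46810800 to 46844332, plus strand). It had 14.6 and 16.3 CPM in 9-month CD11c+ libraries, against 0.0828 and 1.85 CPM in 9-month CD11c- libraries, where it rested on 2 and 41 counts. The CD11c- libraries differed widely from each other but both lay below the CD11c+ libraries, and Timd4 rose by 3.58 ± 0.95 (SE; edgeR adjusted p = 0.0271). That fold change was 7.24 without 9-month CD11c- replicate 2 and 2.59 without CD11c- replicate 1, and the call was lost with DESeq2 (adjusted p = 0.087). At P5 Timd4 had 23.6, 27.1 and 28.5 CPM in CD11c+ libraries, against 0.202, 1.40 and 0.0841 CPM in CD11c- libraries, which held 3, 19 and 1 counts. The P5 groups did not overlap, and replicate 2 stood between the other CD11c+ libraries here. The fold change of 5.31 ± 0.96 (SE) did not pass (edgeR adjusted p = 0.115), and without P5 CD11c+ replicate 2 Timd4 rose by 5.33 ± 0.69 (edgeR adjusted p = 0.00712).

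Dab2, the cytosolic adaptor that links receptors of the low-density lipoprotein family to clathrin, is the member that is no receptor itself (ENSMUSG00000022150, chromosome 15, 6299788 to 6440712, plus strand). It had 342 and 321 CPM in 9-month CD11c+ libraries, against 45.3 and 26.9 CPM in 9-month CD11c- libraries, and rose by 2.84 ± 0.22 (SE; edgeR adjusted p = 0.000203). P5 levels were 2885, 2823 and 2702 CPM in CD11c+ libraries, against 181, 169 and 111 CPM in CD11c- libraries. The P5 CD11c+ libraries lay close together, replicate 2 included, far above the CD11c- libraries. Dab2 rose at P5 by 4.02 ± 0.34 (SE; edgeR adjusted p = 0.0179), and by 4.03 ± 0.22 without P5 CD11c+ replicate 2 (edgeR adjusted p = 0.000257).

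Counted by overlap alone, every CD11c+ library lay above every CD11c- library for all 9 members tested at 9 months, where this held for 49.4% of genes tested. At P5 it held for 9 of 10 members, all but Marco, where it held for 11.7% of genes tested. No member had every CD11c+ library below every CD11c- library (0 at each age), where this held for 23.7% of genes tested at 9 months and 3.64% at P5. Without P5 CD11c+ replicate 2 the P5 count was again 9 of 10, where it held for 28.8% of genes tested and the reverse for 15.9%.

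**Figure D2:**
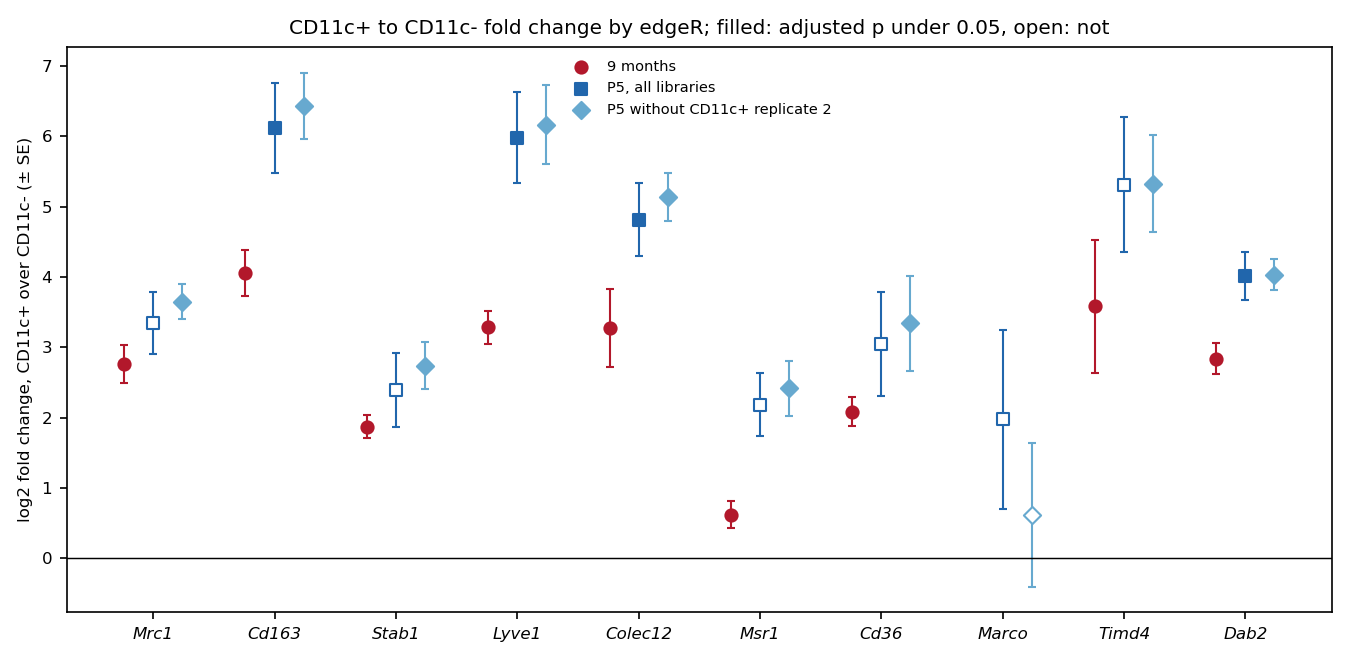
Log2 fold change of CD11c+ over CD11c- for each member, with SE bars, at 9 months and at P5 with and without P5 CD11c+ replicate 2. All points lie above 0. The lowest are Marco at P5 without that library and Msr1 at 9 months, both at 0.62, and the highest is Cd163 at P5 without that library, at 6.43.

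The subset difference was compared between ages as the 9-month log2 fold change minus the P5 one, in a fit of all 10 libraries. No member passed (0 of 10 by edgeR), where 0.302% of 19555 genes were higher and 1.56% lower. The median of the members was -1.15, against -0.06 for all genes tested. At an unadjusted p under 0.05, 2 members were lower, as were 1833 of all genes tested. DESeq2 called 2 members lower, Lyve1 and Dab2, among 1647 of all genes. Limma voom with sample quality weights called 4 members lower, among 2045 of all genes. The difference was -2.53 ± 0.77 for Lyve1 (SE; edgeR adjusted p = 0.141), -1.93 ± 0.81 for Cd163 (edgeR adjusted p = 0.279) and -0.95 ± 0.46 for Dab2 (edgeR adjusted p = 0.351). For Mrc1 it was -0.40 ± 0.66 (edgeR adjusted p = 0.812) and for Stab1 -0.35 ± 0.76 (edgeR adjusted p = 0.861), both smaller than the SE. Without P5 CD11c+ replicate 2 these differences were -0.75 ± 0.37 for Mrc1 (edgeR adjusted p = 0.18) and -0.74 ± 0.42 for Stab1 (edgeR adjusted p = 0.24), which exceed the SE but did not pass. Without P5 CD11c+ replicate 2 the subset difference of 4 members was smaller at 9 months than at P5, where 10.3% of 18348 genes were lower and 8.76% higher. These were Cd163 at -2.27 (edgeR adjusted p = 0.0229), Lyve1 at -2.77 (edgeR adjusted p = 0.0139), Msr1 at -1.69 (edgeR adjusted p = 0.0414) and Dab2 at -1.06 (edgeR adjusted p = 0.0371). In that fit the median of all 10 members was -1.42, against 0.23 for all genes tested. An effect of the kit that differs between subsets would enter these values and cannot be told apart from age.

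Levels of different genes were set side by side as TPM, which divides the counts by gene length and scales each library to the same total. In 9-month CD11c+ libraries Mrc1 led with 138 ± 19.3 TPM (SD, n = 2), followed by Stab1 with 121 ± 4.36 and Dab2 with 120.1 ± 6.70 TPM. Lyve1, Cd36 and Cd163 came next with 51.5, 47.3 and 46.3 TPM, then Msr1 with 24.5, Timd4 with 18.9, Colec12 with 17.5 and Marco with 0.147 TPM. In this order the ranges of Stab1 and Dab2, of Lyve1 and Cd36, of Cd36 and Cd163, and of Timd4 and Colec12 overlapped, while the other neighbours were separate. In 9-month CD11c- libraries Stab1 led with 17.2 ± 5.81 TPM (SD, n = 2), and Mrc1, Dab2 and Msr1 followed with 10.8, 8.82 and 8.14 TPM. The ranges of these 4 neighbours overlapped in turn, though within both libraries Stab1 lay above Mrc1 and Mrc1 above Dab2. The rest ran from Cd36 with 5.64 TPM through Lyve1 with 2.71, Cd163 with 1.43, Colec12 with 0.977 and Timd4 with 0.739 to Marco with 0.0194 TPM.

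In P5 CD11c+ libraries the order was Mrc1 with 1385 ± 839 TPM (SD, n = 3), Stab1 with 1213 ± 865, Dab2 with 939 ± 348 and Lyve1 with 881 ± 446 TPM. Cd36 with 285, Cd163 with 219.6, Colec12 with 124, Msr1 with 46.2, Marco with 36.8 and Timd4 with 29.7 TPM followed. All neighbours in this order overlapped in range. Within each of the 3 libraries, though, Lyve1 lay above Cd36, Cd36 above Cd163, Cd163 above Colec12 and Colec12 above Msr1. The order of the other neighbours was not the same in all 3. In P5 CD11c- libraries the order was Stab1 with 170.4 ± 99.6 TPM (SD, n = 3), Mrc1 with 101 ± 50.3, Dab2 with 46.0 ± 19.0 and Cd36 with 20.7 ± 11.9 TPM. Lyve1 with 9.42, Marco with 8.10, Msr1 with 6.63, Colec12 with 2.94, Cd163 with 2.07 and Timd4 with 0.514 TPM came below. There the neighbours Msr1 and Colec12, and Cd163 and Timd4, were separate, and the others overlapped. Of those that overlapped, Stab1 lay above Mrc1, Mrc1 above Dab2, Cd36 above Lyve1 and Colec12 above Cd163 within each of the 3 libraries.

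Expressed as shares of the summed TPM of the 10 members, the mix of receptors differed between subsets. Stab1 made up 19.1% and 22.5% of it in 9-month CD11c+ libraries, against 31.1% and 29.6% in 9-month CD11c- libraries. At P5 Stab1 made up 27.5%, 15.8% and 21.2% in CD11c+ libraries, against 53.0%, 42.5% and 36.9% in CD11c- libraries, so its share was lower in every CD11c+ library of each age although its level was higher. Lyve1 went the other way, with 8.13% to 9.39% in 9-month CD11c+ libraries, against 4.35% to 5.47% in 9-month CD11c- libraries. Its share at P5 was 16.0% to 19.1% in CD11c+ libraries, against 1.35% to 4.32% in CD11c- libraries. Cd163 likewise held 6.06% to 9.56% in 9-month CD11c+ libraries, against 2.29% to 2.89% in 9-month CD11c- libraries, and 3.35% to 4.43% in P5 CD11c+ libraries, against 0.334% to 0.891% in P5 CD11c- libraries. Msr1 took its largest share, 13.2% and 16.3%, in the 9-month CD11c- libraries. Mrc1 kept 15.4% to 29.6% in all 10 libraries, and at P5 its groups overlapped. No test was made of these shares.

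**Figure D3:**
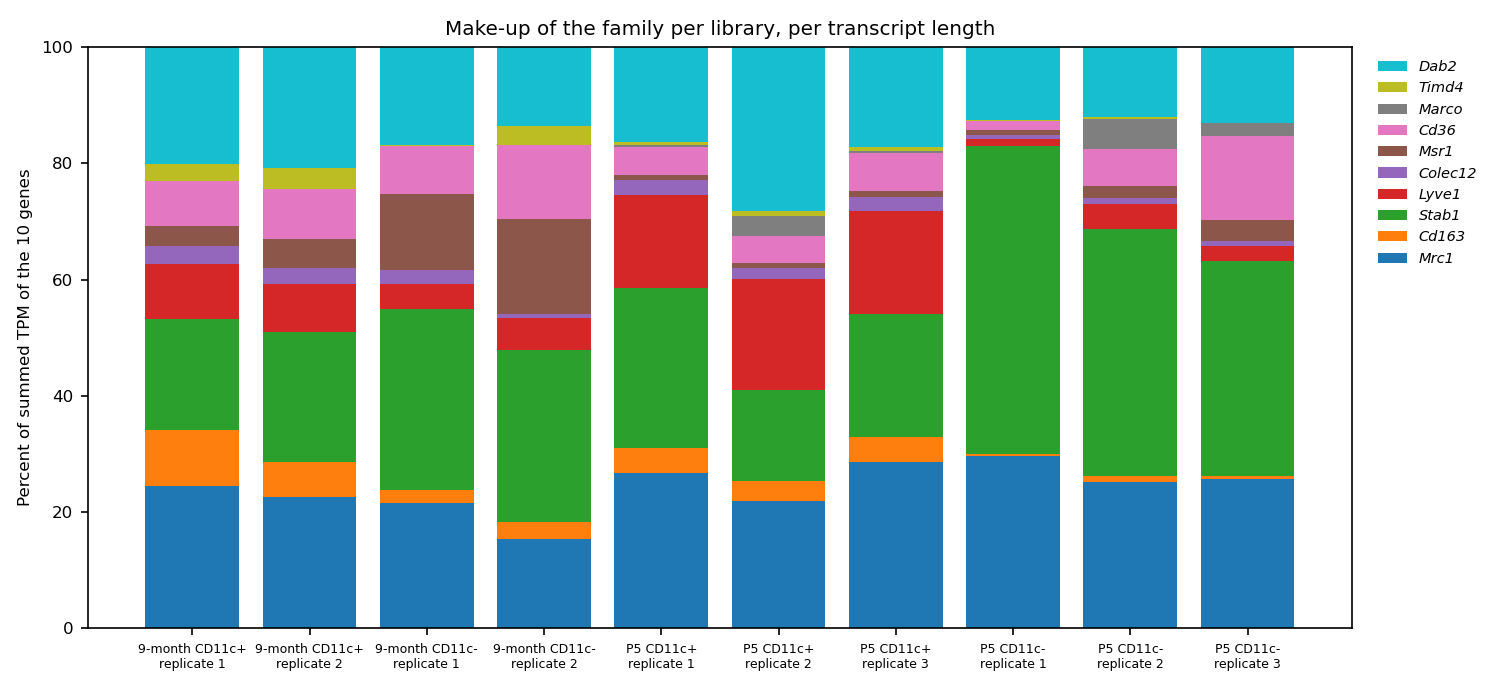
Percent of the summed TPM of the 10 members taken by each member, as 1 stacked bar per library, with CD11c+ left of CD11c- at each age. Stab1 reaches 53.0% in a P5 CD11c- library, and Lyve1 is at least 16.0% in the P5 CD11c+ libraries.

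The whole set took 0.149% and 0.139% of the counts of 9-month CD11c+ libraries, against 0.0266% and 0.0186% of those of 9-month CD11c- libraries. At P5 it took 1.63%, 0.845% and 1.37% in CD11c+ libraries, against 0.165%, 0.144% and 0.0847% in CD11c- libraries. At each age the CD11c+ libraries gave the larger share of their counts to these genes.

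For each member the genes outside the set with the most similar profile were named, from 10902 genes with a mean of at least 5 CPM. Profiles were compared by the root mean square (RMS) difference of log2(CPM + 1) over the 10 libraries, each gene centred on its own mean. The complement gene C2 was nearest to Mrc1 (RMS 0.46) and to Stab1 (0.47). Fcna, the lectin ficolin A, was nearest to Dab2 (0.49) and to Lyve1 (0.68), and the chemokine Pf4 was nearest to Cd163 (0.79) and next to Lyve1 (0.96). Colec12 was nearest to Gprc5c (0.55) and to the folate receptor gene Folr2 (0.57), Cd36 to Egfr (0.45) and the lectin gene Clec4n (0.61), and Timd4 to the ectoenzyme gene Cd38 (0.55) and the lectin gene Clec10a (0.57). Msr1 was nearest to the flagellin receptor gene Tlr5 (0.41) and Plk2 (0.49), with no member closer than Cd36 at 1.11. Marco was nearest to Muc6 (0.91), with no member closer than Stab1 at 1.58. Within the set Mrc1 and Dab2 had the closest profiles (0.47). Dab2 thus lay closer to Mrc1 than to Fcna, and Cd163 lay closer to Colec12 (0.77) than to Pf4. All profiles share the same libraries, depths and subset difference, and the distances are descriptions.

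Other genes of uptake were counted in 4 lists, to be read against the 14.8% of all genes that rose and the 18.2% that fell at 9 months. Of 13 other scavenger receptor genes tested, 5 rose and 2 fell at 9 months, with a median of 0.41. Lgals3bp, a scavenger receptor cysteine-rich protein, had 378 and 409.9 CPM in CD11c+ libraries, against 94.7 and 76.5 CPM in CD11c- libraries (1.83 ± 0.15, edgeR adjusted p = 0.000221). The scavenger receptor and chemokine gene Cxcl16 rose by 1.47 ± 0.15 (edgeR adjusted p = 0.000615). Olr1, the oxidised lipoprotein receptor LOX-1, went against the members at 9 months. It had 2.83 and 1.54 CPM in CD11c+ libraries, against 26.0 and 17.9 CPM in CD11c- libraries (-3.68 ± 0.37, edgeR adjusted p = 0.00061). Its P5 groups overlapped, with 0.382 to 2.24 CPM in CD11c+ libraries, against 1.28 to 3.47 CPM in CD11c- libraries. At P5 0 of 14 passed by edgeR, with 2 higher and 1 lower at an unadjusted p under 0.05; DESeq2 called 1 higher, and limma voom 2 higher and 1 lower.

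Of the 12 genes tested of the low-density lipoprotein receptor family and its sorting receptors, 3 rose and 3 fell at 9 months, with a median of -0.15. Lrp1, a large receptor for apolipoprotein E and many other ligands, had 384 and 390.3 CPM in CD11c+ libraries, against 129.6 and 128 CPM in CD11c- libraries (1.21 ± 0.14, edgeR adjusted p = 0.0012). Sorl1, a sorting receptor, fell by 2.69 ± 0.23 on the log2 scale (edgeR adjusted p = 0.000267). Lrp8, the reelin receptor, fell by 4.36 ± 0.60 (edgeR adjusted p = 0.00214) at 0.235 and 0.214 CPM in CD11c+ libraries, against 4.23 and 3.12 CPM in CD11c- libraries. The P5 groups of Lrp8 overlapped, with 1.15 to 3.29 CPM in CD11c+ libraries, against 2.19 to 4.35 CPM in CD11c- libraries. At P5 0 of 15 passed by edgeR, with 1 higher at an unadjusted p under 0.05; DESeq2 called 1 higher, and limma voom 1 higher and 3 lower.

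Among the relatives of the mannose receptor and the other phosphatidylserine receptors, 4 of 5 tested rose and 1 fell at 9 months, with a median of 1.66. Mertk, a kinase that recognises apoptotic cells, had 823 and 724 CPM in CD11c+ libraries, against 199 and 178 CPM in CD11c- libraries (1.66 ± 0.15, edgeR adjusted p = 0.000345). Havcr2, which encodes TIM-3, rose by 1.66 ± 0.14 (edgeR adjusted p = 0.000281). Ly75, the lectin DEC-205, had 1.61 and 2.05 CPM in CD11c+ libraries, against 46.8 and 40.7 CPM in CD11c- libraries, and fell by 4.95 ± 0.24 (edgeR adjusted p = 3.93e-05). The P5 groups of Ly75 overlapped, with 1.58 to 18.3 CPM in CD11c+ libraries, against 1.68 to 5.05 CPM in CD11c- libraries. By edgeR 0 of 6 passed at P5, with 1 lower at an unadjusted p under 0.05; DESeq2 called 1 lower and limma voom 2 lower.

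Of 35 genes tested of clathrin adaptors and endocytic machinery, 8 rose and 9 fell at 9 months, with a median of -0.28. These shares, like those of the lipoprotein receptor list, lie not far above those of all genes. The 3 with the smallest p all fell. Hip1r, which links clathrin to actin, fell by 3.50 ± 0.25 (edgeR adjusted p = 0.000134), the scaffold gene Itsn2 fell by 2.19 ± 0.22 (edgeR adjusted p = 0.00056), and Ap2s1, the small subunit of the AP-2 adaptor, fell by 1.31 ± 0.17 (edgeR adjusted p = 0.00166). At P5 1 of 37 rose, the scaffold gene Itsn1, with 282, 122 and 277 CPM in CD11c+ libraries, against 13.7, 17.5 and 12.2 CPM in CD11c- libraries (3.77 ± 0.42, edgeR adjusted p = 0.0302). Without P5 CD11c+ replicate 2, 8 of 37 rose and 2 fell, where 5.06% of all genes rose and 4.42% fell. The P5 median of this list was 0.15, against 0.06 for all genes tested and 4.02 for Dab2 itself.

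Markers of other cell types moved with the CD11c+ and CD11c- groups. At 9 months 14 of 15 neutrophil markers and 9 of 13 monocyte markers fell in CD11c+ cells, where 18.2% of genes tested fell. Of the monocyte markers 2 rose, and of the neutrophil markers 0, where 14.8% of genes tested rose. The summed level of the neutrophil list was 2179 and 3121 CPM in CD11c+ libraries, against 138815 to 188664 CPM in CD11c- libraries, and that of the monocyte list was 722 to 774 CPM, against 13389 to 15645 CPM. Elane was at 3.81 and 0.983 CPM in CD11c+ libraries, against 689 and 589 CPM in CD11c- libraries. All 19 genes of homeostatic microglia rose at 9 months, with a median of 1.30, and their sum was 80703 to 87107 CPM in CD11c+ libraries, against 27884 to 28037 CPM in CD11c- libraries. Under the scaling to those 19 genes 8 members still rose at 9 months, all but Msr1, with Cd163 at 2.83, Lyve1 at 2.07 and Stab1 at 0.66. That scaling moved the median of all genes by -1.21, and the calls over all genes were 117 higher and 8590 lower, against 2333 higher and 2869 lower under TMM. That scaling takes the summed RNA of the 19 genes as equal in both subsets, so it does not measure neutrophil or monocyte RNA. The part of neutrophil and monocyte RNA in the 9-month differences was not tested.

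Of 22 markers of border-associated macrophages that are no members, 17 rose and 2 fell at 9 months, with a median of 2.21. Their summed level was 1389.6 to 1631 CPM in 9-month CD11c+ libraries, against 903 to 935 CPM in 9-month CD11c- libraries. At P5 10 of 21 tested rose, with a median of 4.54, and the sum was 7504 to 15751 CPM in CD11c+ libraries, against 1514 to 2583 CPM in CD11c- libraries. The highest of these sums lay in P5 CD11c+ replicate 2, where Maf had 7488 CPM and F13a1 3457 CPM, and without it 17 of 21 rose. Pf4 had 95.4 and 125 CPM in 9-month CD11c+ libraries, against 12.6 and 22.1 CPM in 9-month CD11c- libraries. F13a1 was not higher there, with 349 and 300 CPM in 9-month CD11c+ libraries, against 367 and 340 CPM in 9-month CD11c- libraries. At P5 Pf4 had 636, 1284 and 734 CPM in CD11c+ libraries, against 5.73, 14.9 and 7.48 CPM in CD11c- libraries. No gene of this list was at 0 throughout a group, and the part of border-associated macrophages in the members' differences was not tested.

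At P5 0 of the 19 homeostatic genes passed by edgeR, with 5 lower at an unadjusted p under 0.05, 3 lower by DESeq2 and 6 lower by limma voom. Their median was -0.92, and their summed level was 14273 to 20309.9 CPM in CD11c+ libraries, against 17849 to 30994 CPM in CD11c- libraries. Without P5 CD11c+ replicate 2, 5 of the 19 fell. P2ry12 had 757, 293 and 1137 CPM in P5 CD11c+ libraries, against 2165, 1161 and 1082 CPM in P5 CD11c- libraries, and Tmem119 had 95.1, 27.1 and 159 CPM in CD11c+ libraries, against 529.8, 249.7 and 277 CPM in CD11c- libraries. Both genes were thus detected in every P5 library. At 9 months P2ry12 had 4276 and 4922 CPM in CD11c+ libraries, against 1433 and 1451 CPM in CD11c- libraries. Which cells made up each group was not tested. Neutrophil markers summed to 421 to 608 CPM in P5 CD11c+ libraries, against 1164 to 3817 CPM in P5 CD11c- libraries, and Elane was at 0 in every P5 CD11c+ library. Of 15 neutrophil markers 0 passed at P5 by edgeR, with 13 lower at an unadjusted p under 0.05, 11 lower by DESeq2 and 12 lower by limma voom.

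Lyve1 and Stab1 are also known from lymphatic and sinusoidal endothelium. The 16 endothelial markers summed to 49.2 to 60.4 CPM in 9-month CD11c+ libraries, against 61.3 to 79.3 CPM in 9-month CD11c- libraries, and to 117 to 315 CPM in P5 CD11c+ libraries, against 77.1 to 88.4 CPM in P5 CD11c- libraries. Cldn5, a tight-junction gene of brain endothelium, was at 0 in 9 of the 10 libraries and at 1.91 CPM in P5 CD11c+ replicate 2. That library also held 24.8 CPM of Mmrn1, a gene of lymphatic endothelium, against 0 CPM in the other P5 CD11c+ libraries. Stab2, of the same list, had 21.8 CPM there, against 0.527 and 0.374 CPM in the other P5 CD11c+ libraries. Of the 8 endothelial markers tested, 3 rose and 1 fell at 9 months and 1 rose at P5. Emcn was at 0 in the 9-month CD11c+ libraries, and Tek and Flt4 in the 9-month CD11c- libraries. The part of endothelial RNA in the Lyve1 and Stab1 differences was not tested beyond these values. Dendritic cell markers, some of whose cells carry CD11c, summed to 292 to 301 CPM in 9-month CD11c+ libraries, against 51.0 to 63.0 CPM in 9-month CD11c- libraries, and 4 of 9 rose. At P5 they summed to 91.7 to 156 CPM in CD11c+ libraries, against 37.3 to 57.5 CPM in CD11c- libraries, and 0 of 9 passed by edgeR, with 6 higher at an unadjusted p under 0.05, 3 by DESeq2 and 6 by limma voom; the part of dendritic cells was not tested. Monocyte markers summed to 654 to 897 CPM in P5 CD11c+ libraries, against 382 to 1400.3 CPM in P5 CD11c- libraries, and 0 of 13 passed by edgeR, with 5 lower at an unadjusted p under 0.05, 2 by DESeq2 and 7 by limma voom. Mural cell and fibroblast markers summed to 4.61, 109 and 2.94 CPM in P5 CD11c+ libraries, against 3.03 to 11.8 CPM in P5 CD11c- libraries, so the high value was that of replicate 2 alone. Without that library the median log2 fold change of the 4 tested was -1.02, against 1.40 with it. At 9 months the sums were 1.14 to 1.88 CPM in CD11c+ libraries, against 1.62 to 2.08 CPM in CD11c- libraries; Rgs5 and Lum were at 0 in the 9-month CD11c+ libraries and Cspg4 in the 9-month CD11c- libraries. Markers of astrocytes, oligodendrocytes and neurons summed to 317 to 341 CPM in 9-month CD11c+ libraries, against 148 to 189.7 CPM in 9-month CD11c- libraries, and to 99.4 to 299 CPM in P5 CD11c+ libraries, against 109 to 197 CPM in P5 CD11c- libraries.

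**Figure D4:**
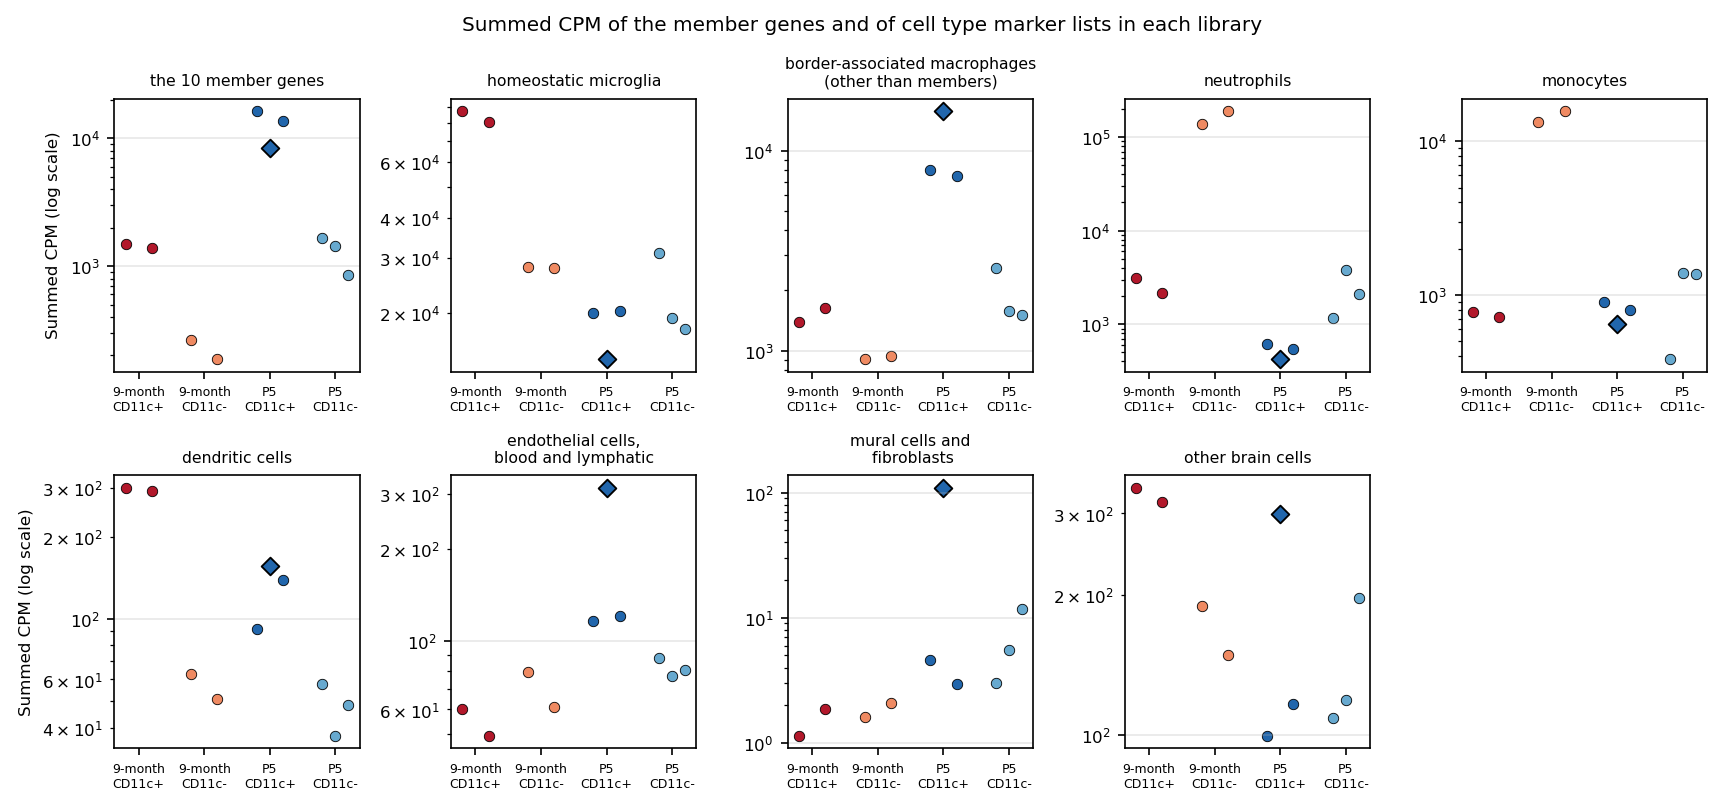
Summed CPM of each marker list in every library on a log10 axis, by group, with CD11c+ left of CD11c- at each age and P5 CD11c+ replicate 2 as a diamond. Neutrophil markers are at 138815 CPM or more in the 9-month CD11c- libraries, and the sums of border-associated macrophage markers do not overlap between subsets at either age.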

How the data were processed

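Whole-number read counts of genes, not normalized, were deposited by the authors for each library. Trimmomatic 0.36, STAR 2.5.2b and Subread 1.5.2 are the tools named, per the submitters' processing notes. Build and strand setting are not given in the sources used here. Coordinates are those deposited, and the spans of 91.4% of 49056 shared identifiers, and of 9 of the 10 members, equal GENCODE M21 (GRCm38), from which symbols were taken. The members and all gene lists were chosen with earlier results of these data known.

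Counts were tested by quasi-likelihood in edgeR 4.0.16 (R 4.3.3), with filterByExpr and TMM scaling, at each age on its own libraries, and between ages as an interaction over all 10 libraries. P-values were adjusted over all genes tested, with a threshold of 0.05. Tests were also run on simulated counts, with a spread set below the fitted one. The fitted common coefficient of variation was 0.273 at 9 months, 0.614 at P5 and 0.684 in the interaction. That run therefore does not show how the tests behave at the spread of the P5 and interaction data. SE is the fold change over the root of F. CPM is plain, from each library's total, and TPM uses the exonic length deposited. Depth was 2619610 to 25483573 counts per library. No replicate pair agreed within sampling noise (chi-square per degree of freedom 28.3 to 244). Named genes are all members, Itgax, the 2 nearest profiles outside the set per member, and from each pathway list the called genes with the 3 smallest p. Other marker genes given with values were chosen after their values were seen. Alternatives were DESeq2 1.42.0, limma 3.58.1 voom with sample weights, other scalings, no filter, all libraries in the fit, a replicate block and leaving out each library. No value column was left unused (0 columns).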

Additional observations from a re-analysis of the deposited data

Results flagged for a closer look

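No member's subset difference changed between ages past the threshold, but 4 genes of the pathway lists did, by the interaction test of edgeR on the 9-month log2 fold change minus the P5 one. They are no members, and for each the effect at 9 months was set against that at P5. Mrc2, a relative of Mrc1, had 32.4 and 31.5 CPM in 9-month CD11c+ libraries, against 9.69 and 6.01 CPM in 9-month CD11c- libraries. At P5 it had 6.59, 2.29 and 7.003 CPM in CD11c+ libraries, against 25.2, 13.8 and 18.2 CPM in CD11c- libraries. The CD11c+ libraries were the higher ones at 9 months and the lower ones at P5, and the difference was 3.77 ± 0.66 (SE; edgeR adjusted p = 0.0247). Mertk had 823 and 724 CPM in 9-month CD11c+ libraries, against 199 and 178 CPM in 9-month CD11c- libraries. At P5 it had 429.9, 386 and 413 CPM in CD11c+ libraries, against 746, 460.0 and 429 CPM in CD11c- libraries, where the groups overlapped. Its difference was 2.43 ± 0.46 (SE; edgeR adjusted p = 0.0312). The motor gene Myo6 had 15.6 and 16.1 CPM in 9-month CD11c+ libraries, against 6.21 and 4.75 CPM in 9-month CD11c- libraries, with a difference of 1.80 ± 0.38 (edgeR adjusted p = 0.0471). Hip1r had 2.83 and 2.99 CPM in 9-month CD11c+ libraries, against 28.5 and 22.4 CPM in 9-month CD11c- libraries, with a difference of -2.59 ± 0.54 (edgeR adjusted p = 0.0441). At P5 Myo6 and Hip1r overlapped between subsets, with 19.2 to 39.3 CPM of Myo6 in CD11c+ libraries, against 29.0 to 35.9 CPM in CD11c- libraries, and 6.87 to 10.5 CPM of Hip1r in CD11c+ libraries, against 9.70 to 15.1 CPM in CD11c- libraries. Over all genes the interaction made 0 calls when any 9-month library or P5 CD11c- replicate 3 was left out, and under the replicate block, so each of these 4 calls was lost there. The kit, which cannot be told apart from age, and the neutrophil RNA of the 9-month CD11c- libraries move with these differences, and their part was not tested.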

How the results depend on the processing

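With 2 or 3 libraries per group the P5 calls depend on P5 CD11c+ replicate 2 and on the tool. The members that rose at 9 months numbered 9, 8 to 9 with 1 library left out, and 5 when all 10 libraries shared 1 fit, which lost Msr1, Timd4, Cd36 and Stab1. Over all genes that shared fit called 280 of 19555 higher and 878 lower at 9 months, against 2333 and 2869 of 15740 in the main fit. The 4 that rose at P5 became 9 with DESeq2 and with limma voom, 0 with the replicate block, and 0 to 9 with 1 library left out, 0 without any of the 5 others and 9 without CD11c+ replicate 2. The 0 that differed between ages became 2 with DESeq2, 4 with voom, 7 with the homeostatic scaling and 0 to 4 with 1 library left out. Calls over all genes grew as well, with 738 higher and 1647 lower by DESeq2 and 1872 and 2045 by voom. That scaling moved the median of all genes by 0.47 at P5 and -1.85 between ages, where it called 22 genes higher and 5764 lower, against 59 and 305. Over all genes P5 calls were 46 higher and 0 lower, 392 and 162 with DESeq2, 1371 and 1900 with voom, and 801 and 700 without CD11c+ replicate 2. Those calls were 0 and 0 with the replicate block, and also without any single P5 library other than CD11c+ replicate 2. Whether replicate numbers pair the samples was not settled. Correlations of deviations of same-numbered libraries were 0.276, 0.0347 and -0.145 at P5, where other pairs had -0.323 to 0.254. At 9 months they were 0.150, which cannot decide, because deviations of 2 libraries from their mean mirror each other. The replicate block left 9 members higher at 9 months. With the homeostatic scaling Msr1 at 9 months was -0.58, and the differences between ages were -1.13 for Itgax and -0.21 for Myo6. Marco's difference, near 0, was -0.36 with RLE, -0.16 with DESeq2, -1.95 with the homeostatic scaling, -0.80 with the block and -3.73 to 2.56 with 1 library left out. Stab1's was -0.74 to 0.12 with 1 library left out, positive without P5 CD11c+ replicate 1. Timd4's was 0.059 with voom and -3.31 to 2.27 with 1 library left out, positive without 9-month CD11c- replicate 2. The cause was not tested.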
